A study of Mus musculus with 18 samples.

Results

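The mouse genes whose symbol is Trim followed by a number and at most 1 letter were taken as the tripartite motif (Trim) family. A total of 68 of the 22598 genes in the count tables met this rule, and all 68 are annotated as protein coding. The genes were measured by RNA sequencing of primary bone marrow-derived macrophages (BMDMs) labelled wild type, in 6 groups of 3 libraries collected at 18 h. The groups were untreated control, the type II interferon IFNg alone, and IFNg combined with TNF, with IL1b, with the bacterial lipopolysaccharide LPS or with hypoxia. As every group except control received IFNg, an agent's own effect and its combination with IFNg cannot be told apart. The sources used here give no mouse strain, age, dose or oxygen level, nor whether libraries within a group derive from different mice or cultures. The p-values therefore measure the spread between these libraries, which may be technical.

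Trim proteins carry a RING domain, 1 or more B-boxes and a coiled coil, and most act as E3 ubiquitin ligases whose C-terminal domain chooses the substrate. Many take part in innate immunity: they attach ubiquitin to receptors and adaptors of the RIG-I, STING and Toll-like receptor pathways, or bind incoming viral proteins. In macrophages several Trim genes are known interferon-stimulated genes, and others encode transcriptional cofactors or ligases with no immune role.

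The 18 libraries held 12270565 to 20952799 gene-assigned reads. All 10 macrophage markers examined (such as Csf1r, Adgre1 and Cd68) were detected in every group, with summed levels of 21800 to 27330 CPM (counts scaled to library size with TMM factors) in control, 13840 to 15570 CPM with IFNg, 19020 to 20450 CPM with TNF added, 14340 to 15600 CPM with LPS added and 17150 to 17810 CPM with hypoxia added. IFNg raised 2 of these 10 and lowered 5, TNF raised 3 and lowered 5, LPS raised 3 and hypoxia raised 4. Cd3e, Cd3d and Cd3g (T cells), Ms4a1 and Pax5 (B cells) and the globin genes had no count in any group. Markers of granulocyte precursors summed to 109.5 to 168.9 CPM in control, 109.5 to 131.3 CPM with IFNg, 11 to 14.99 CPM with IFNg and TNF, 28.7 to 44.4 CPM with IFNg and LPS and 67.1 to 95.01 CPM with IFNg and hypoxia. A B-cell list, carried by Ighm and Cd79b, was at 573.7 to 749.7 CPM in control and went from 504.9 to 578.6 CPM with IFNg to 7.28 to 12.6 CPM with TNF added, 63.3 to 109.6 CPM with LPS added and 249.6 to 282.9 CPM with hypoxia added. Added TNF lowered 9 of the 10 granulocyte genes and both tested B-cell genes, and added LPS lowered 8 of the 10 and both. A T-cell list carried by Il7r and Cd247 summed to 119.7 to 135.1 CPM in control, 41.1 to 59.0 CPM with IFNg, 180.3 to 281.6 CPM with TNF added, 116.6 to 210 CPM with LPS added and 85.1 to 106 CPM with hypoxia added. Klrk1 of the NK-cell list was at 0 to 1.77 CPM in control and 76.9 to 95.6 CPM with IFNg. It was at 18.1 to 21.6 CPM with TNF added, 29.9 to 33.8 CPM with LPS added and 56.5 to 67.1 CPM with hypoxia added. The other genes of that list, Ncr1, Klrb1c and Gzma, had no count in any group. An endothelial list carried by Kdr summed to 12.2 to 15.9 CPM in control and 14.8 to 27.9 CPM with IFNg. It was at 46.9 to 83.8 CPM with TNF added, 36.9 to 69.6 CPM with LPS added and 7.41 to 10.98 CPM with hypoxia added. Cdh5 of that list went the other way, averaging 0.97 CPM with IFNg, 0.20 CPM with TNF added and 1.64 CPM with hypoxia added. Emcn had no count in any group. The part of these lists in the Trim results below was not tested. In such bulk samples fewer cells of a type and less RNA per cell cannot be told apart.

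Of the 68 genes, 17 had no count in any library, among them Trim38 and the muscle genes Trim54 and Trim63. Another 8 had counts but were too low to be tested. These were Trim29 (35 counts in all 18 libraries), Trim43a (15), Trim43c (26), Trim55 (44), Trim66 (18), Trim69 (57), Trim75 (7) and Trim9 (6). The other 43 were tested. A gene is said below to have risen or fallen where its adjusted p was under 0.05 (edgeR's quasi-likelihood test, Benjamini-Hochberg over 11563 genes). Differences are log2 fold changes ± SE, and levels in single libraries are CPM, with n = 3 libraries in each group.

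On the per-length scale of the deposited RPKM, the level of the 43 genes spanned from under 1 to over 100. Trim30a had the highest mean over the 18 libraries (120.1 RPKM), followed by Trim25 (111), Trim21 (48.4), Trim28 (42.9), Trim8 (28.3), Trim30d (28.1) and Trim14 (26.8). A total of 17 genes averaged at least 10 RPKM, 19 lay between 1 and 10 RPKM and 7 of the tested genes were under 1 RPKM. The order of the leading pair differed between conditions. Trim25 was at 96.0 ± 9.7 RPKM (SD, n = 3) and Trim30a at 82.0 ± 8.9 RPKM in control, 73.3 ± 11.7 and 117.6 ± 2.0 RPKM with IFNg, and 192.7 ± 19.3 and 148.4 ± 9.3 RPKM with IFNg and TNF. Together the pair made up 28.9% ± 2.5 (SD, n = 3) of the RPKM summed over all Trim genes in control, 30.1% ± 2.1 with IFNg, 45.4% ± 2.4 with TNF added and 37.4% ± 1.7 with LPS added.

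**Figure D1:**
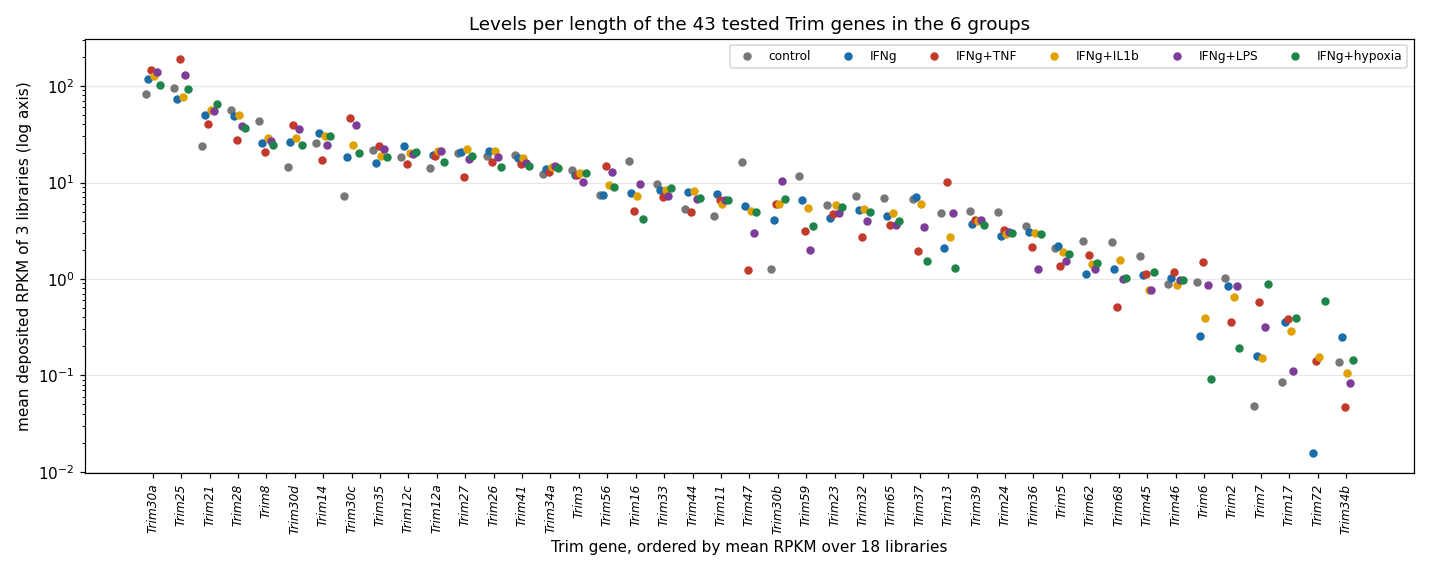
Mean deposited RPKM of 3 libraries (vertical axis, log scale) for the 43 tested Trim genes, ordered by their mean over 18 libraries, with 1 coloured point for each of the 6 groups. Trim30a and Trim25 lead the order, at 120.1 and 111 RPKM over all libraries, and a group mean of 0 RPKM (Trim72 in control and with LPS) is not drawn.

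IFNg against control raised 9 of the 43 tested Trim genes and lowered 5, or 32.6% of them, beside 23.6% of all tested genes called in either direction (13.5% higher, 10% lower). TNF added to IFNg raised 10 and lowered 6 (37.2%, beside 44.7% of all genes, 22.1% higher and 22.6% lower). LPS added to IFNg raised 8 and lowered 4 (27.9%, beside 20.3%, 10.2% higher and 10.1% lower). Hypoxia added to IFNg raised 6 and lowered 3 (20.9%, beside 25.2%, 13.5% higher and 11.8% lower). IL1b added to IFNg moved none past the threshold, beside 0.303% of all genes (0.268% higher, 0.0346% lower). In all, 25 of the 43 changed in at least 1 of these 5 comparisons. The matching share of all genes was not counted, so the 25 cannot be set beside a background.

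The median Trim gene stood at 0.03 for IFNg against control, 0.14 for added TNF, 0.06 for added IL1b, -0.06 for added LPS and 0.16 for added hypoxia. The median of all genes was -0.015, -0.049, -0.001, -0.004 and -0.011 in the same order. These small positive and negative medians depend on the scaling. With libraries scaled to the total reads behind the deposited RPKM, the median of all genes moved by -0.152, -0.319, 0.006, -0.076 and -0.245. The Trim genes then numbered 6 higher and 8 lower for IFNg, 8 and 10 for added TNF, and 3 and 6 for added hypoxia. No Trim gene called in any comparison changed its direction under that scaling.

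**Figure D2:**
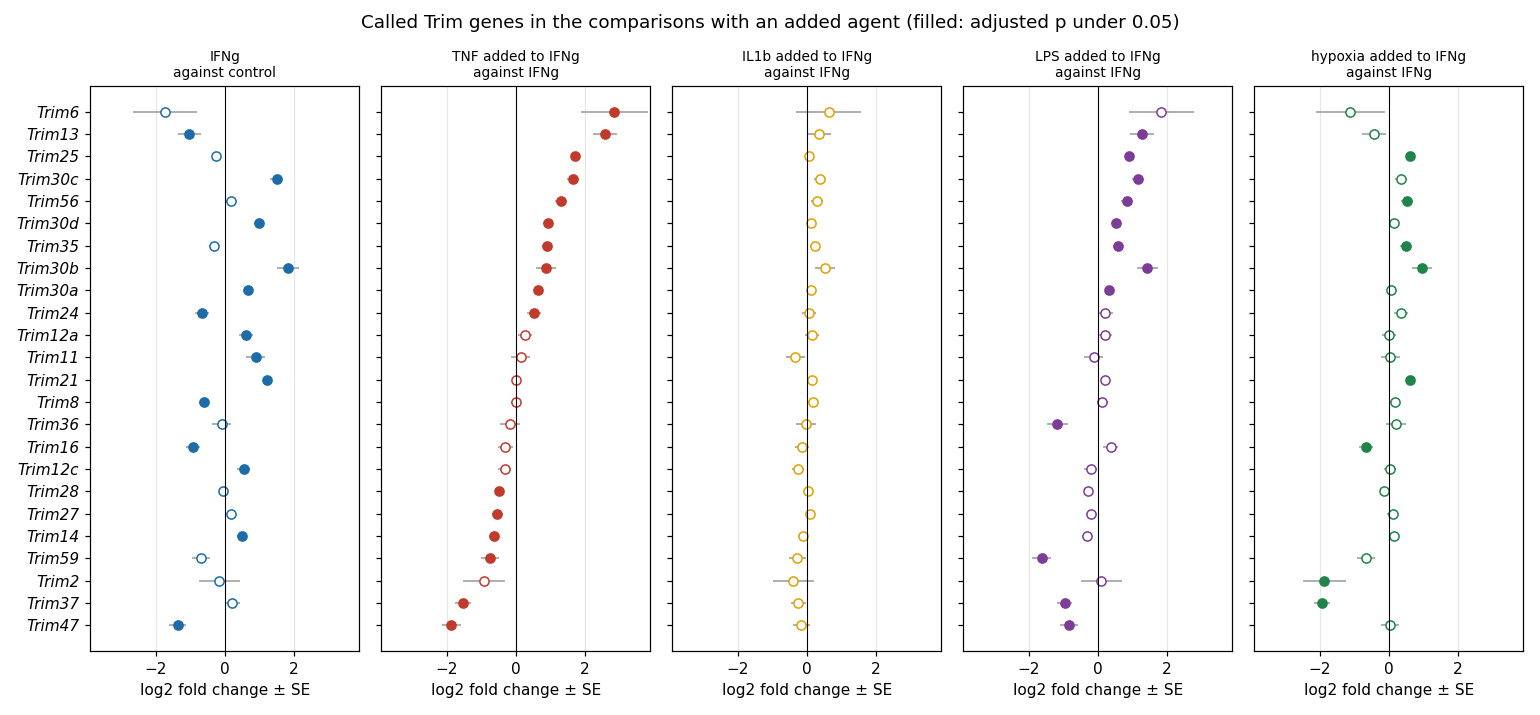
Log2 fold changes ± SE (horizontal axis) of 24 Trim genes that passed the test in at least 1 of 5 comparisons, 1 panel for each comparison; filled points have an adjusted p under 0.05. Trim72, whose SE exceeds 1.7, is left out; the points of Trim13, Trim25, Trim30c and Trim56 lie right of 0 with TNF and with LPS, and no point is filled for IL1b.

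A run of 10 Trim genes lies side by side on chromosome 7 (mm10, chr7:104218793-104507849) in the order Trim6, Trim34a, Trim5, Trim12a, Trim34b, Trim12c, Trim30b, Trim30c, Trim30a and Trim30d. All are assigned to the class of Trim genes with a C-terminal SPRY domain, and are relatives of the human capsid-binding restriction factor TRIM5. The longest coding sequences of Trim30b (609 bases) and Trim12a (891 bases) are shorter than those of the other genes (1455 to 1539 bases). Whether Trim30b and Trim12a encode the whole domain was not tested. IFNg raised 6 of these 10 genes and lowered none, with a median of 0.65. Added TNF raised 5 (median 0.47), added LPS raised 4 (median 0.28) and added hypoxia raised 1 (median 0.04), again with none lower. The 33 tested Trim genes elsewhere in the genome split into 3 higher and 5 lower with IFNg (24.2%). They split into 5 and 6 with TNF (33.3%), 4 and 4 with LPS (24.2%), and 5 and 3 with hypoxia (24.2%). Some of the 10 are near copies whose reads can be exchanged in the counting, whereas no 50-base coding window of Trim6 occurs in another gene.

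The stretch before the start site is shown for 6 genes, the 5 Trim genes that match the core of the interferon-stimulated response element (ISRE) there and Trim30c, a close relative of Trim30a that rose with IFNg, TNF and LPS and has no match. The sequences are the RefSeq windows (GRCm38.p6) of 250 bases before a start site, cut where an annotated exon begins. They are written 5′ to 3′ on the gene's strand, with capitals marking the ISRE core on either strand, a pair of GAAA half-sites with any 2 bases between them.
Trim30a (chr7:104465194-104465443, minus strand): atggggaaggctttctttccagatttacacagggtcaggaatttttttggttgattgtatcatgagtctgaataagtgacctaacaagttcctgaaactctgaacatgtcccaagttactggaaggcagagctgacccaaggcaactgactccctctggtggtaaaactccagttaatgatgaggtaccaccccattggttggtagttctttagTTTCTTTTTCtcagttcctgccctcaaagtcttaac
Trim30d (chr7:104507850-104508099, minus strand): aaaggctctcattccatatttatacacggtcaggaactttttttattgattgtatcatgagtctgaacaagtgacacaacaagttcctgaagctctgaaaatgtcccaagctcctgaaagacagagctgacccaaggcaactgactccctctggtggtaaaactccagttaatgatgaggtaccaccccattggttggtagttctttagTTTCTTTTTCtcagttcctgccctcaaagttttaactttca
Trim30c (chr7:104400838-104401028, minus strand): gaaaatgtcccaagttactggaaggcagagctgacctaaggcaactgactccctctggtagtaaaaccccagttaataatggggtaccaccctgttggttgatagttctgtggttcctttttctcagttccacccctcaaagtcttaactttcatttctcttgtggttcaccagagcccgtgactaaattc
Trim5 (chr7:104288107-104288356, minus strand): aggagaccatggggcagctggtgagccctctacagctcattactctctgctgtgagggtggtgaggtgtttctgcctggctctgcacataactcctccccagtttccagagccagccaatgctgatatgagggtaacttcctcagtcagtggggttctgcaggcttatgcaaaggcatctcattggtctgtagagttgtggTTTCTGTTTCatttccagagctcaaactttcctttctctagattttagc
Trim12c (chr7:104353363-104353599, minus strand): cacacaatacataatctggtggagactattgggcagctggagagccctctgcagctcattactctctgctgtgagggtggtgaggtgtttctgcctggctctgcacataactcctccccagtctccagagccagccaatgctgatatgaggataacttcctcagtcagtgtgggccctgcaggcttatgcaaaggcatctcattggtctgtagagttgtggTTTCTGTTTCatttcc
Trim26 (chr17:36836896-36837133, plus strand): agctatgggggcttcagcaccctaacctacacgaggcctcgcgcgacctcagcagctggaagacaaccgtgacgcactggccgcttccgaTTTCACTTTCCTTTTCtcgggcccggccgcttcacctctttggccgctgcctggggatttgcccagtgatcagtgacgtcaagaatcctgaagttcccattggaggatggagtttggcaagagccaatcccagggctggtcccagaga

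The table gives 67 windows for 53 of the 68 genes, since some genes have several. An ISRE core was in 5 of the 67 windows (7.46%), those of 5 genes, beside 2.98% of all 32851 windows of the table. The windows of Trim30a and Trim30d are 92.7% identical over 245 aligned bases, and those of Trim5 and Trim12c 95.2% over 230 aligned bases, so the 5 matches do not come from 5 unrelated sequences. The match starts 36 bases before the start site in Trim30a, 41 in Trim30d, 49 in Trim5 and 29 in Trim12c. A second window of Trim30a (chr7:104446126-104446375) holds no match. The Trim12a window holds none either, and its last bases are those that stand shortly before the match in Trim5 and Trim12c. Bases past a start site were not searched. Trim26 holds 2 overlapping matches. A match says only that the letters are present: Trim30a, Trim30d and Trim12c rose with IFNg, whereas Trim5 (0.23 ± 0.53, adjusted p = 0.824) and Trim26 (0.32 ± 0.17, adjusted p = 0.194) did not pass the test. The windows of Trim21, Trim25, Trim30c and Trim56 hold no such match. Cores of other inducible elements were searched on both strands, with overlaps between motifs allowed. The STAT core TTCNNNGAA was in 6 of the 67 windows (8.96%, beside 7.02% of all windows), the NF-kB core (GGG and CC with any 5 bases between) in 29 (43.3%, beside 45.8%) and the hypoxia-response cores ACGTG or GCGTG in 19 (28.4%, beside 38.6%).

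Trim30a encodes a ligase known to restrain Toll-like receptor signalling to NF-kB in mouse macrophages. Its level was 176, 186 and 227 CPM in the 3 control libraries, 305, 314 and 317 CPM with IFNg, 456, 495 and 524 CPM with TNF added and 358, 403 and 422 CPM with LPS added. The IFNg libraries lay above all control libraries, and the TNF and LPS libraries above all IFNg libraries. The change was 0.67 ± 0.11, adjusted p = 3.17e-05 for IFNg and 0.66 ± 0.11, adjusted p = 1.87e-05 for added TNF. For added LPS it was 0.34 ± 0.11, adjusted p = 0.0288, a call lost without IFNg library 1, 2 or 3 or LPS library 2 or 3, with libraries scaled to the RPKM totals or with only the 2 groups fitted (adjusted p from 0.0535 to 0.0984). With hypoxia the libraries were at 322, 305 and 348 CPM and overlapped those with IFNg alone.

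Trim30c, a less studied neighbour, rose at each of the same steps. It went from 22.4, 16.02 and 15.1 CPM in control to 52.9, 36.9 and 63.4 CPM with IFNg, 135, 165 and 181 CPM with TNF added and 108, 103 and 134 CPM with LPS added. Each of these steps separated the libraries without overlap. IFNg raised it 2.85-fold (1.51 ± 0.19, adjusted p = 2.97e-07), TNF a further 3.14-fold (1.65 ± 0.18, adjusted p = 1.92e-08) and LPS a further 2.25-fold (1.17 ± 0.18, adjusted p = 1.53e-05). Added hypoxia gave 55.9, 66.7 and 73.3 CPM and a difference of 0.36 ± 0.18, adjusted p = 0.155, which did not pass.

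Trim30d also rose with IFNg, TNF and LPS. Control libraries held 28.3, 37.3 and 38.1 CPM and IFNg libraries 69.3, 69.3 and 68.9 CPM, a 2-fold rise (adjusted p = 3.49e-06). TNF brought it to 125, 133 and 139.6 CPM (0.94 ± 0.14, adjusted p = 3.46e-06) and LPS to 102, 88.6 and 107 CPM (0.52 ± 0.14, adjusted p = 0.00733). Neither group overlapped IFNg alone.

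Trim30b had the lowest mean RPKM of the 4 Trim30 genes and held 2.88, 2.63 and 1.39 CPM in control and 9.85, 8.06 and 6.97 CPM with IFNg (1.84 ± 0.32, adjusted p = 5.23e-05). With LPS its libraries spread widely, at 30.4, 23.2 and 13.9 CPM, yet all stood above IFNg alone (1.44 ± 0.30, adjusted p = 0.000634). With TNF they were at 18.7, 12.5 and 14.8 CPM (0.88 ± 0.29, adjusted p = 0.016), a call lost without IFNg library 3 or TNF library 1 or with libraries scaled to the RPKM totals (adjusted p from 0.0719 to 0.127). Trim30b was the one gene of the cluster raised by hypoxia, at 15.6, 16.8 and 16.3 CPM (0.96 ± 0.30, adjusted p = 0.0167), and that call was lost without IFNg library 2 or 3 or with libraries scaled to the RPKM totals (adjusted p from 0.0515 to 0.0785).

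The 4 Trim30 genes together made up 17.0% ± 1.5 (SD, n = 3) of the summed Trim RPKM in control, 26.2% ± 0.6 with IFNg, 32.1% ± 1.3 with TNF added and 31.1% ± 1.0 with LPS added, and 25.1% ± 1.3 with hypoxia added. Similar copies can exchange reads in the counting. Of the 50-base windows of the longest coding sequence, 18.6% in Trim30d and 15.7% in Trim30a occur in another gene. The share was 5.18% for Trim30b and 0.74% for Trim30c. For Trim30b that sequence has 609 bases, whereas its gene width in the deposited counts is 1143 bases, so its share covers only a part. Trim30c has the smallest shared part of the 4.

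**Figure D3:**
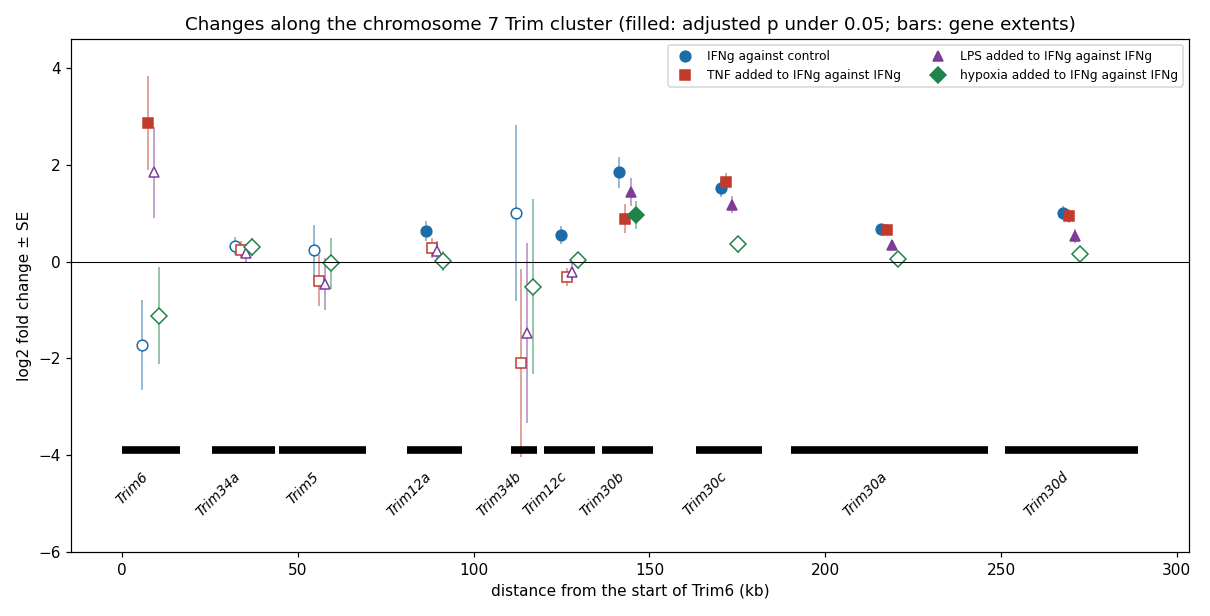
Log2 fold changes ± SE (vertical axis) of the 10 neighbouring Trim genes of chromosome 7 against distance from the start of Trim6 (kb), for IFNg, TNF, LPS and hypoxia; filled symbols have an adjusted p under 0.05 and black bars are gene extents. The filled symbols above 0 gather in Trim30b, Trim30c, Trim30a and Trim30d, and the widest error bars belong to Trim34b, which never exceeded 0.958 CPM in a library.

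Elsewhere in the cluster, Trim12a rose with IFNg from 28.9, 21.5 and 16.6 to 40.5, 31.1 and 32.1 CPM (0.63 ± 0.20, adjusted p = 0.0241), lost without control library 2 or 3 or IFNg library 1 or with libraries scaled to the RPKM totals (adjusted p from 0.0706 to 0.148). Trim12c rose from 50.7, 46.03 and 33.8 to 65.5, 52.9 and 73.4 CPM (0.55 ± 0.18, adjusted p = 0.0262), lost without control library 3 or IFNg library 1 or 3 or with libraries scaled to the RPKM totals (adjusted p from 0.0682 to 0.156). Trim12a, Trim12c and Trim5 are near copies: 43.5%, 45.2% and 60.1% of their 50-base coding windows occur in another gene, so the split of reads between them is uncertain.

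Trim34a held 30.9, 27.8 and 26.6 CPM in control and 39.7, 29.1 and 37.9 CPM with IFNg, with overlapping libraries. Its copy Trim34b, 98.8% identical in coding sequence, was near the limit of detection, where 3 counts correspond to 0.151 to 0.255 CPM, with 0.958, 0 and 0 CPM in control and 0.730, 0.706 and 0.547 CPM with IFNg. Neither passed in any comparison. Trim5 was at 3.93, 8.44 and 3.15 CPM in control and 7.56, 4.18 and 6.43 CPM with IFNg. Its libraries ranged from 1.48 to 8.44 CPM over all groups and overlapped in each of the 7 comparisons.

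Trim6, whose product builds unanchored ubiquitin chains that serve the kinase IKKe, was low, at 1.61, 1.71 and 3.33 CPM in control and 0.469, 1.18 and 0.342 CPM with IFNg. Its 3 TNF libraries, at 5.72, 6.31 and 2.59 CPM, were all above those with IFNg alone (2.86 ± 0.96, adjusted p = 0.0171). That call was lost without IFNg library 1 or 3 or TNF library 2 (adjusted p from 0.0557 to 0.0702).

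Among the ligases of nucleic acid sensing, Trim25, which ubiquitinates RIG-I, rose with 3 of the 4 additions and did not pass with IFNg itself. Control libraries held 258, 323 and 303 CPM and IFNg libraries 219, 291 and 238 CPM, and these overlapped (-0.24 ± 0.12, adjusted p = 0.165). With TNF the level was 723, 843 and 891 CPM, with LPS 450.4, 499 and 462 CPM and with hypoxia 409, 351 and 379 CPM. Every library of these 3 groups exceeded every IFNg library. TNF raised Trim25 3.28-fold (1.72 ± 0.12, adjusted p = 6.83e-12), LPS 1.89-fold (0.92 ± 0.12, adjusted p = 1.98e-06) and hypoxia 1.52-fold (0.61 ± 0.12, adjusted p = 0.000393). Each of these calls held in all alternatives tried.

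Trim56, a ligase tied to STING and Toll-like receptor 3 signalling, also rose with TNF, LPS and hypoxia. It was at 33.04, 22.4 and 22.5 CPM in control and 34.8, 24.8 and 28.4 CPM with IFNg, which overlapped. TNF gave 80.5, 78.5 and 60.8 CPM (1.32 ± 0.17, adjusted p = 4.76e-07) and LPS 52.8, 54.6 and 52.3 CPM (0.86 ± 0.17, adjusted p = 0.000515), both apart from IFNg alone. Hypoxia gave 44.9, 39.7 and 42 CPM (0.52 ± 0.17, adjusted p = 0.0268), a call lost without IFNg library 2 or 3 or hypoxia library 1 or 3 or with libraries scaled to the RPKM totals (adjusted p from 0.0613 to 0.265).

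Trim21, the cytosolic antibody receptor that directs antibody-coated virus to the proteasome, rose with IFNg and with hypoxia. Its level was 61.3, 48.2 and 50.5 CPM in control and 119.8, 119 and 134 CPM with IFNg, a 2.33-fold rise (1.22 ± 0.12, adjusted p = 5.86e-09). Hypoxia added to IFNg gave 199, 174 and 197 CPM (0.61 ± 0.12, adjusted p = 0.000254), above all IFNg libraries. With TNF it was at 131, 134 and 112 CPM, overlapping IFNg alone (0.02 ± 0.12, adjusted p = 0.915). The direct comparison of TNF with hypoxia put Trim21 lower with TNF (-0.60 ± 0.12, adjusted p = 0.000177).

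Trim14, which lacks a RING domain and serves as an adaptor at mitochondrial MAVS, rose with IFNg and fell with TNF. The libraries held 56.5, 61 and 53.6 CPM in control, 71.1, 87.1 and 82.8 CPM with IFNg and 45.1, 60.01 and 52.04 CPM with TNF added. The rise was 0.49 ± 0.14, adjusted p = 0.0116, lost without control library 3 or IFNg library 2 or with libraries scaled to the RPKM totals (adjusted p from 0.0503 to 0.0918). The fall was -0.62 ± 0.14, adjusted p = 0.000911, and the TNF libraries lay below all IFNg libraries.

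Trim13, a ligase anchored in the endoplasmic reticulum, rose with TNF and LPS and fell with IFNg. Control libraries held 12.1, 10.6 and 5.33 CPM and IFNg libraries 3.08, 5.53 and 5.19 CPM. TNF gave 32.1, 26.1 and 24.1 CPM, LPS 9.68, 14.6 and 9.13 CPM and hypoxia 2.45, 4.17 and 3.55 CPM. The TNF libraries exceeded every other library of these groups, and the control and IFNg libraries overlapped. Trim13 rose 5.97-fold with TNF (2.58 ± 0.34, adjusted p = 5.45e-07). Its LPS rise (1.28 ± 0.33, adjusted p = 0.00603) was lost without IFNg library 1 or LPS library 2 (adjusted p = 0.0515 and 0.0528), and its fall with IFNg (-1.03 ± 0.33, adjusted p = 0.0247) was lost without control library 1 or 2 or IFNg library 1 or with only the 2 groups fitted (adjusted p from 0.0652 to 0.142). A related sequence, Gm9359, shares 19.4% of the 50-base coding windows of Trim13.

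Trim26, a regulator of IRF3, was at 62.7, 46.2 and 43.9 CPM in control and 73.4, 51.8 and 64.9 CPM with IFNg, which overlapped. It ranged from 43.9 to 73.4 CPM over the 18 libraries and passed in no comparison. Trim65, a ligase of the RNA sensor MDA5, did not pass in any either, with 13.4, 12.6 and 26.8 CPM in control and 12.6, 12.9 and 13.1 CPM with IFNg. Trim38 had no count in any of the 18 libraries.

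**Figure D4:**
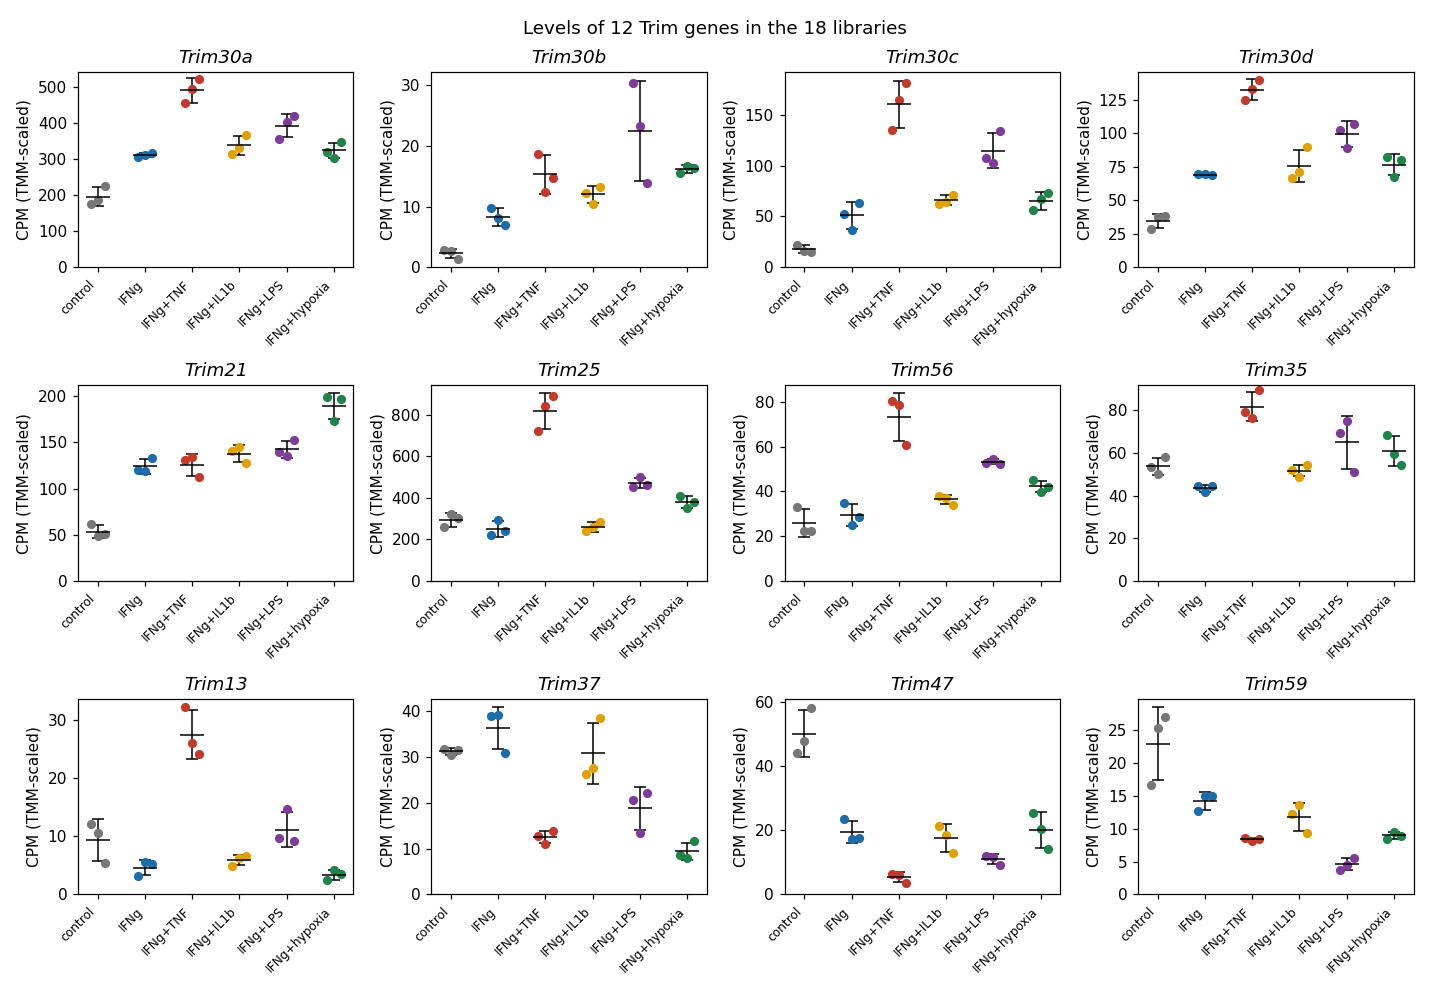
CPM of 12 Trim genes in the 18 libraries (vertical axis from 0, a separate scale for each gene; points are libraries, long lines group means and whiskers SD, n = 3). TNF libraries are the highest for Trim30a, Trim30c, Trim30d, Trim25, Trim56, Trim35 and Trim13, hypoxia libraries for Trim21, and control libraries for Trim47 and Trim59.

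Trim28, the corepressor recruited by KRAB zinc-finger proteins to silence retroelements, fell with TNF. Its level was 222, 226 and 227 CPM in control, 205, 217 and 229 CPM with IFNg and 160.0, 127 and 177 CPM with TNF added. The TNF libraries lay below all others of these groups (-0.49 ± 0.12, adjusted p = 0.00145). With LPS the libraries, at 184, 179.6 and 174 CPM, also lay below IFNg alone, but the difference of -0.27 ± 0.12, adjusted p = 0.111 did not pass.

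Trim24 and Trim33 share the PHD finger and bromodomain of Trim28. Trim24, a nuclear receptor cofactor, went from 33.4, 23.8 and 20.6 CPM in control to 16.3, 17.1 and 16 CPM with IFNg (-0.66 ± 0.21, adjusted p = 0.0192) and 25.1, 24.6 and 21.8 CPM with TNF (0.53 ± 0.21, adjusted p = 0.0369). The fall was lost without control library 1 or IFNg library 1 or 3 (adjusted p from 0.0587 to 0.183), and the rise was lost without IFNg library 1, 2 or 3 or TNF library 1 or 2, with libraries scaled to the RPKM totals, with no filter on low counts or with only the 2 groups fitted (adjusted p from 0.0536 to 0.428). Trim33, a cofactor of TGF-beta signalling through Smad4, was at 51.96, 47.98 and 59.3 CPM in control and 49.7, 64.05 and 38.8 CPM with IFNg. It overlapped IFNg alone in every added condition and passed in no comparison.

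Trim27 fell with TNF from 53.7, 58.1 and 59.6 to 43.3, 36.5 and 38.2 CPM (-0.54 ± 0.16, adjusted p = 0.00739), with no overlap. Trim8, a ligase that acts on the kinase TAK1, fell with IFNg from 95.7, 131 and 119 to 80.6, 78.8 and 68.5 CPM (-0.60 ± 0.15, adjusted p = 0.00325). Its level did not pass in any comparison between IFNg and IFNg with an added agent.

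Trim37, a ligase of peroxisomes and centrosomes with a MATH domain, fell with TNF, LPS and hypoxia. It was at 31.9, 30.4 and 31.5 CPM in control and 38.9, 39.3 and 30.96 CPM with IFNg, which overlapped. TNF gave 12.8, 11.1 and 13.8 CPM (-1.53 ± 0.22, adjusted p = 2.21e-06), LPS 20.7, 13.5 and 22.2 CPM (-0.95 ± 0.22, adjusted p = 0.0018) and hypoxia 8.68, 8 and 11.6 CPM (-1.95 ± 0.23, adjusted p = 2.63e-07). All 9 libraries with one of these agents lay below all 3 with IFNg alone. The hypoxia level was 3.86-fold lower than with IFNg alone.

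Trim47, a SPRY-type ligase, fell at 2 successive steps. Control libraries held 44.2, 47.9 and 58.2 CPM, IFNg libraries 23.6, 17.3 and 17.6 CPM and TNF libraries 6.39, 6.05 and 3.53 CPM, with no overlap between the 3 groups. The fall was -1.36 ± 0.25, adjusted p = 0.000139 for IFNg and -1.86 ± 0.27, adjusted p = 1.82e-06 for added TNF. LPS gave 11.99, 11.6 and 9.20 CPM (-0.83 ± 0.26, adjusted p = 0.0194), a call lost without IFNg library 1 or LPS library 3 (adjusted p = 0.0741 and 0.113). With hypoxia Trim47 held 25.3, 20.5 and 14.2 CPM and overlapped IFNg alone.

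Trim59, which like Trim13 spans a membrane, fell with LPS and with TNF. IFNg libraries held 12.6, 14.95 and 14.97 CPM, LPS libraries 3.77, 4.39 and 5.58 CPM (-1.63 ± 0.27, adjusted p = 4.72e-05) and TNF libraries 8.61, 8.15 and 8.48 CPM (-0.75 ± 0.26, adjusted p = 0.0211). Neither group overlapped IFNg alone. The TNF call was lost without IFNg library 2 or 3 or TNF library 2 (adjusted p from 0.0574 to 0.0628). Trim59 averaged 22.9 ± 5.6 CPM (SD, n = 3) in control and 8.99 ± 0.53 CPM with hypoxia added. It did not pass for IFNg against control or for added hypoxia, although the hypoxia mean was near the TNF mean of 8.41 CPM. Trim36 also fell with LPS, from 11.9, 13.8 and 10.2 to 3.65, 5.05 and 7.25 CPM (-1.17 ± 0.30, adjusted p = 0.00459), and its TNF libraries overlapped IFNg alone.

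Hypoxia also moved a pair of genes at the lower end of the range. Trim72, known from muscle as the membrane-repair protein MG53, had 2 counts in the 3 IFNg libraries together and 73 in the 3 hypoxia libraries. The hypoxia libraries held 2.12, 1.36 and 1.93 CPM, above all others. The ratio was 46.6, with a 95% counting interval of 12.4 to 392, which covers counting error only. The test gave an adjusted p = 0.0322 and was lost without IFNg library 1 or 3 or hypoxia library 1, 2 or 3 or with no filter on low counts (adjusted p from 0.0592 to 0.134). Trim2, an NHL-domain ligase studied in neurons, fell from 3.91, 4.24 and 2.19 to 0.729, 0.851 and 1.24 CPM (-1.87 ± 0.63, adjusted p = 0.029), lost without IFNg library 1 or 2 or hypoxia library 1 or 2 or with no filter on low counts (adjusted p from 0.0502 to 0.0993). Of the 50-base coding windows of Trim72, 24.7% also occur in the gene model Gm15533, which overlaps Trim72 on the other strand. Whether strand was used in the counting is not given, so some Trim72 counts could belong to Gm15533.

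A further 4 genes passed the test without reaching a 2-fold change, and are named here after their values were seen. Trim35 rose with TNF (0.91 ± 0.15, adjusted p = 1.19e-05), with LPS (0.58 ± 0.15, adjusted p = 0.00467) and with hypoxia (0.48 ± 0.15, adjusted p = 0.0166). Its hypoxia call was lost without IFNg library 2 or hypoxia library 1 or with libraries scaled to the RPKM totals (adjusted p from 0.0599 to 0.232). Trim11 rose with IFNg (0.90 ± 0.28, adjusted p = 0.0168), lost without control library 1 or 3 (adjusted p = 0.0532 and 0.066). Trim16, which marks damaged lysosomes for autophagy, fell with IFNg from 39.6, 48.5 and 46.8 to 23.9, 23.1 and 24.3 CPM (-0.92 ± 0.21, adjusted p = 0.00133) and again with hypoxia (-0.66 ± 0.21, adjusted p = 0.0225). The latter call was lost without IFNg library 1 or 3 or hypoxia library 1 or 2 (adjusted p from 0.056 to 0.108). Trim32 passed in the comparison of TNF with hypoxia alone (-0.78 ± 0.25, adjusted p = 0.0167) and was lost there without TNF library 2 or 3 or hypoxia library 3 (adjusted p from 0.0594 to 0.0906).

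IL1b added to IFNg left no Trim gene past the threshold with edgeR or with DESeq2. At an unadjusted p under 0.05 edgeR gave 1 gene, Trim30c, at 62.8, 64.2 and 71.6 CPM with IL1b (0.38 ± 0.18, adjusted p = 0.951). For 30 of the 43 genes the 95% interval of the difference lay inside a 2-fold change in either direction. For the other 13, which include Trim6, Trim13, Trim30b and Trim72, a 2-fold change was not excluded by this interval. Trim25 had 238, 259 and 285 CPM with IL1b and Trim21 140.3, 145 and 128 CPM, both overlapping IFNg alone.

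LPS and TNF were compared directly, both in the presence of IFNg. With LPS 2 Trim genes were higher and 9 lower than with TNF (25.6% of 43, beside 25.3% of all genes, 12.2% higher and 13.1% lower), and the median Trim gene stood at -0.221 beside 0.017 for all genes. This split turned to 8 higher and 3 lower with libraries scaled to the RPKM totals, which moved the median of all genes by 0.243. Trim25 (-0.80 ± 0.12, adjusted p = 1.11e-05) and Trim13 (-1.30 ± 0.32, adjusted p = 0.0036) were lower with LPS in every alternative. The other 9 calls were each lost in at least 1 alternative.

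Among those 9, the Trim30 genes were lower with LPS by small margins. Trim30c (-0.48 ± 0.18, adjusted p = 0.0441) was lost without TNF library 2 or 3 or LPS library 1 or 2, with libraries scaled to the RPKM totals or with only the 2 groups fitted (adjusted p from 0.0561 to 0.348). Trim30d (-0.42 ± 0.14, adjusted p = 0.0281) was lost without TNF library 2 or 3 or LPS library 1 or 2, with libraries scaled to the RPKM totals or with only the 2 groups fitted (adjusted p from 0.0603 to 0.39). Trim30a (-0.32 ± 0.11, adjusted p = 0.0335) was lost without TNF library 2 or 3 or LPS library 1 or 2, with libraries scaled to the RPKM totals or with only the 2 groups fitted (adjusted p from 0.0666 to 0.646). Trim56 (-0.46 ± 0.17, adjusted p = 0.0475) was lost without TNF library 1 or 2 or LPS library 1, 2 or 3, with libraries scaled to the RPKM totals, with no filter on low counts or with only the 2 groups fitted (adjusted p from 0.0595 to 0.379).

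Trim36 (-1.01 ± 0.30, adjusted p = 0.0126) and Trim59 (-0.88 ± 0.27, adjusted p = 0.0163) were also lower with LPS. Trim36 was lost without LPS library 1, with libraries scaled to the RPKM totals or with only the 2 groups fitted (adjusted p from 0.0557 to 0.0907), and Trim59 without LPS library 1 or 2, with libraries scaled to the RPKM totals or with only the 2 groups fitted (adjusted p from 0.0536 to 0.128). Trim47 was higher with LPS (1.03 ± 0.27, adjusted p = 0.00481) and was lost with only the 2 groups fitted (adjusted p = 0.0503). Trim16 was higher too, with overlapping libraries (0.67 ± 0.21, adjusted p = 0.0184), and was lost without TNF library 1 or 2 or LPS library 2 or with only the 2 groups fitted (adjusted p from 0.0666 to 0.113). Trim72 had no count with LPS and 22 counts with TNF, so it was at least 7.95-fold lower against a floor of 3 counts over the group (adjusted p = 0.0441). That call was lost without TNF library 1 or 2 or LPS library 1, 2 or 3, with no filter on low counts or with the replicate block (adjusted p from 0.0642 to 0.116).

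TNF and hypoxia, again both with IFNg, differed in 8 Trim genes higher with TNF and 6 lower (32.6%, beside 39.0% of all genes, 18.9% higher and 20.1% lower). The higher genes were Trim6, Trim13, Trim30c, Trim25, Trim56, Trim30d, Trim30a and Trim35. Trim13 differed 8.12-fold (3.02 ± 0.35, adjusted p = 8.61e-08), Trim30c 2.46-fold (1.30 ± 0.18, adjusted p = 1.24e-06) and Trim25 2.16-fold (1.11 ± 0.12, adjusted p = 2.55e-08). Trim6 was at 5.72, 6.31 and 2.59 CPM with TNF and 0.861, 0 and 0 CPM with hypoxia (3.98 ± 1.04, adjusted p = 0.00306). Trim47 (-1.90 ± 0.27, adjusted p = 1.77e-06), Trim14 (-0.77 ± 0.14, adjusted p = 9.23e-05), Trim27 (-0.65 ± 0.16, adjusted p = 0.00183) and Trim28 (-0.34 ± 0.12, adjusted p = 0.0273) were lower with TNF. Of these 14 calls, 11 held in every alternative. Trim28 was lost without TNF library 2 or hypoxia library 1 or 3 (adjusted p from 0.0526 to 0.191), and Trim35 without TNF library 3 or hypoxia library 2 or 3 or with libraries scaled to the RPKM totals (adjusted p from 0.0575 to 0.111). Trim37, lowered by both agents, did not pass between them (0.42 ± 0.23, adjusted p = 0.153).

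By domain class, 27 of the 38 SPRY-type (class C-IV) Trim genes were tested. IFNg raised 9 and lowered 2 of them (40.7%, beside 23.6% of all genes called), TNF 7 and 3 (37.0%, beside 44.7%), LPS 6 and 1 (25.9%, beside 20.3%), and hypoxia 5 and 1 (22.2%, beside 25.2%). Outside the chromosome 7 cluster the 17 tested SPRY-type genes split into 3 higher and 2 lower with IFNg (29.4%) and 2 and 3 with TNF (29.4%). They split into 2 and 1 with LPS (17.6%) and 4 and 1 with hypoxia (29.4%). All 9 Trim genes that rose with IFNg were assigned to the SPRY class, among them Trim12a and Trim30b with their shorter coding sequences. None of the 3 tested NHL-type genes (Trim2, Trim3 and Trim32) changed with IFNg, TNF or LPS.

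Genes of the pathways that Trim proteins act in were counted from 5 lists, to be read beside the 23.6% of all genes called with IFNg, 44.7% with TNF, 20.3% with LPS and 25.2% with hypoxia. Of 20 type I interferon-stimulated genes, IFNg raised 15 and lowered none (median 0.97), among them Ifi44 (3.28 ± 0.13). TNF raised 15 of the 20 (median 0.63), led by Oasl1 (3.58 ± 0.17) and Rsad2 (2.78 ± 0.16), and LPS raised 9 (median 0.38). Hypoxia raised none and lowered 1, Ifi44 (-0.41 ± 0.12, adjusted p = 0.0127), in the same libraries in which Trim21, Trim25 and Trim30b were higher.

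Of 19 genes of RNA and DNA sensing, IFNg raised 6 and lowered none, TNF raised 10 and lowered 3, LPS raised 6 and lowered 1, and hypoxia raised 1 and lowered 4. The largest TNF changes were in Tank (2.21 ± 0.13), Traf3 (1.95 ± 0.27) and Ikbke (1.29 ± 0.25), adaptors and a kinase that act downstream of RIG-I. Tmem173, which encodes STING, rose with IFNg (1.90 ± 0.12). It averaged 585 CPM with IFNg, 267 CPM with TNF added, 404 CPM with LPS added and 807 CPM with hypoxia added. With hypoxia Irf3 (-0.77 ± 0.20) and Ddx58, which encodes RIG-I, the substrate of Trim25 (-0.47 ± 0.15), were lower.

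Of 14 tested genes of ubiquitin and ISG15 conjugation, IFNg raised 9, TNF raised 9 and lowered 1, LPS raised 3 and hypoxia raised 2. Isg15 itself, the ubiquitin-like modifier, rose with IFNg (1.23 ± 0.14), TNF (2.14 ± 0.14) and LPS (1.38 ± 0.14).

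Of 18 tested partners of the Trim28 corepressor, IFNg raised 4 and lowered none. TNF raised 3 and lowered 6 (50.0%, beside 44.7% of all genes), LPS raised 3 and lowered 5 (44.4%, beside 20.3%), and hypoxia raised 3 and lowered 6 (50.0%, beside 25.2%). The share for TNF is near that of all genes. Setdb1, the histone methyltransferase that Trim28 recruits, fell with TNF (-0.95 ± 0.12), as did Trim28. Uhrf1, which guides maintenance DNA methylation, fell with TNF (-3.67 ± 0.33), LPS (-2.10 ± 0.30) and hypoxia (-3.21 ± 0.33). Other partners went the other way. Mdm2 averaged 125 CPM with IFNg, 1142 CPM with TNF added and 429 CPM with LPS added. Daxx averaged 260, 442 and 333 CPM in the same groups.

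A list of 7 tested genes under other symbols encodes proteins that share at least 1 domain with Trim proteins, not always the whole domain plan. IFNg raised 2 of the 7 and lowered none, TNF raised 2 and lowered 2, LPS moved none past the threshold and hypoxia lowered 1. Pml, the organiser of nuclear bodies, rose with IFNg (1.38 ± 0.11, adjusted p = 1.93e-10), as did Rnf135, a second RIG-I ligase (0.78 ± 0.19, adjusted p = 0.00335). TNF raised Rnf135 further (0.78 ± 0.19, adjusted p = 0.00156) and Spryd3 (0.56 ± 0.21, adjusted p = 0.0313), and lowered Pml (-0.27 ± 0.11, adjusted p = 0.0479). Fsd2 fell from 65 counts in the 3 IFNg libraries together to 2 with TNF (adjusted p = 0.0319), and Fsd1l from 96 counts to 9 with hypoxia (adjusted p = 0.027).

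The remaining tested Trim genes did not pass in any of the 7 comparisons. They are Trim3, Trim5, Trim7, Trim17, Trim23, Trim26, Trim33, Trim34a, Trim34b, Trim39, Trim41, Trim44, Trim45, Trim46, Trim62, Trim65 and Trim68, 17 in all. Trim7 and Trim17 were under 1 RPKM, whereas Trim41, a SPRY-type ligase, averaged over 10 RPKM. Coding bases of 13 of the 68 Trim genes overlap an exon of another gene. The overlap is on the same strand for Trim16 (with Fbxw10) and Trim65 (with Trim47), so some of their reads could belong to the neighbour. It is on the other strand for the rest, among them Trim72 (with Gm15533), Trim14 and Trim35. The same could hold for these if strand was not used in the counting.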

How the data were processed

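Polyadenylated RNA of the 18 libraries was sequenced as single-end reads of 50 bases after stranded library preparation from 100 ng of total RNA, per the labels' protocols. The submitters' processing notes name GSNAP and mm10. Which counter and annotation were used, and whether strand was, is not given in the sources used here. Each deposited table holds whole-number counts of reads per gene, the RPKM that the authors computed from them, and a gene width per the file headers. The reads behind the RPKM, recovered from the deposited count, width and RPKM, show that 51.68 to 56.45% of them were in the count column.

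The members and lists were chosen with earlier results of these data known. Gene symbols came from GENCODE M21 by Ensembl ID (22457 of 22598 IDs matched). Counts were fitted with edgeR 4.0.16 in R 4.3.3: TMM factors (0.805 to 1.186), the default expression filter (11563 genes kept), 1 robust quasi-likelihood model over all 18 libraries with a mean for each group, and Benjamini-Hochberg adjustment over all tested genes with a threshold of 0.05. The SE is the fold change divided by the square root of the F statistic. CPM are counts divided by the TMM-scaled library size, at which 3 counts equal 0.151 to 0.255 CPM. Levels of different genes were compared only as RPKM. Counting intervals and floors cover counting error only.

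Values in single libraries were given, for each comparison, for members called with a change of at least 2-fold (up to 8), for the 5 members highest in RPKM, and for 24 members with a described role (for those that passed in no comparison, in control and IFNg libraries, except Trim38, which had no count). Trim16 was added after its values were seen. Alternatives were DESeq2 1.42.0, RLE factors, scaling to the RPKM totals, no filter, a filter of 50 counts in 3 libraries, a fit of only the 2 groups compared, the replicate number as a block, and leaving out each library in turn. The edgeR code was tested on simulated data. Marker and pathway lists are given by counts.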

Additional observations from a re-analysis of the deposited data

How the results depend on the processing

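Of 76 calls over the 7 comparisons, DESeq2, RLE factors and the stricter filter ended none where the gene was tested. Scaling to the RPKM totals ended 16, the fit of only the 2 groups 11 and no filter 5, and no call reversed. Leaving out 1 library ended a call in 96 cases, each a call paired with a left-out library. The cause was not tested. Calls kept in every alternative were 8 of 14 for IFNg, 12 of 16 for TNF, 9 of 12 for LPS and 3 of 9 for hypoxia. They were 2 of 11 for LPS against TNF and 11 of 14 for TNF against hypoxia. Scaling to the RPKM totals gave 8 Trim genes lower with IFNg, 10 lower with added TNF, 3 higher and 6 lower with added hypoxia, and 8 higher and 3 lower for LPS against TNF. The fit of only LPS and TNF gave 0 higher and 2 lower, from 6 libraries in place of 18.

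Leaving out 1 library at a time gave 6 to 8 Trim genes higher and 3 to 6 lower for IFNg against control, 8 to 10 and 5 to 7 for added TNF, 0 and 0 for IL1b, 6 to 8 and 3 to 4 for LPS, 3 to 5 and 1 to 3 for hypoxia, 1 to 3 and 3 to 8 for LPS against TNF, and 7 to 8 and 4 to 6 for TNF against hypoxia. Counts moved by over 1.5 times without IFNg library 1 (3 lower with IFNg, 1 lower with hypoxia), IFNg library 2 (3 higher with hypoxia), hypoxia library 2 (1 lower), TNF library 1 or 2 (1 higher for LPS against TNF), TNF library 2 (5 lower) and LPS library 1 or 2 (3 lower).

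Titles number the libraries M1 to M3 in every group, and what M marks is not given in the sources used here. The numbers were not taken to pair libraries: the correlation of their deviations from the group means ran from -0.08 to 0.283 and was not above 0.1 for every pair of any comparison. In the comparisons of IFNg with control, of LPS with IFNg and of hypoxia with IFNg every library correlated best with its own number, a hint from the data and not the design. With the replicate number as a block the counts were 9 higher and 5 lower for IFNg, 10 and 6 for TNF, 0 and 0 for IL1b, 8 and 4 for LPS, 6 and 3 for hypoxia, 3 and 9 for LPS against TNF and 8 and 6 for TNF against hypoxia. The block ended 1 call, Trim72 for LPS against TNF (-5.79, adjusted p = 0.0642). Low counts widen the errors of the 7 tested genes under 1 RPKM and kept 8 genes from being tested; the part of depth and of reads that match several genes in these low counts was not tested.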
